A study of Mus musculus with 25 samples.

Results

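The serotonin receptors described here are 10 genes: Htr1a, Htr1b, Htr1d, Htr1f, Htr2a, Htr2b, Htr3a, Htr3b, Htr5b and Htr7. They were taken from 30142 genes with a probe set of their own by their annotated symbol, with the probe set of highest mean over all arrays wherever a gene has several. The members were chosen by gene family, and the measured value in the rule is the mean over all 25 arrays, which ignores the groups. They are not the whole family, because Htr2c, Htr4, Htr5a and Htr6 were on the array as well. Which genes became members was decided with earlier results of these data known, so the choice was not blind to them. Each of the 10 genes had 1 probe set, so brightness decided nothing within a gene. Of the 20260 genes bright enough to be tested, 9 were serotonin receptor members, and Htr2b was not.

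The study measured gene expression in dorsal root ganglia, the clusters of sensory neuron cell bodies beside the spinal cord, at lumbar levels L3-L5 in male C57BL/6 mice. At 10 weeks old, mice were operated on the right knee, either with a sham procedure or with destabilization of the medial meniscus (DMM), in which the cartilage pad loses its anchoring and osteoarthritis develops, and naive mice had no operation. Ganglia were collected when the mice were 14, 18 or 26 weeks old, which for operated mice is 4, 8 or 16 weeks from the operation, and naive mice are given the same times here by their age. The 25 arrays form 9 groups of treatment and time with 3 arrays each, except that sham mice at 8 weeks have 1 array, because the others did not meet the submitters' quality control. No transgene or drug is named for any group, and which side the ganglia came from and how many animals each array holds are not stated. Each p-value below therefore measures only the spread between these samples, which may be technical. In bulk tissue, fewer cells of a type and less RNA per cell cannot be told apart.

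Serotonin (5-HT) is released in the periphery by platelets and, in rodents, by mast cells, and it excites and sensitizes sensory neurons at sites of injury and inflammation. The 5-HT1 and 5-HT5 receptors couple to Gi/o proteins and lower cyclic AMP, the 5-HT2 receptors couple to Gq and phospholipase C, and the 5-HT7 receptor couples to Gs and raises cyclic AMP. The 5-HT3 receptor differs from all of these in being a cation channel that serotonin opens directly. The 5-HT1B, 5-HT1D and 5-HT1F receptors sit on sensory neurons and are the targets of the triptans and related migraine drugs.

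The promoters of the 3 5-HT1 receptor genes that differed between times are shown because these genes did not move the same way: Htr1d and Htr1f were higher at 16 weeks and Htr1b was lower. The sequences are the 250 bases before each annotated start in RefSeq (build GRCm38.p6), read 5′ to 3′ on the gene's strand, and 8 of the 10 members had an entry in the table. Capitals mark matches, on either strand, to a GC box (GGGCGG) or a CCAAT box (CCAAT).
Htr1d, first start, chr4:136423274-136423523, plus strand: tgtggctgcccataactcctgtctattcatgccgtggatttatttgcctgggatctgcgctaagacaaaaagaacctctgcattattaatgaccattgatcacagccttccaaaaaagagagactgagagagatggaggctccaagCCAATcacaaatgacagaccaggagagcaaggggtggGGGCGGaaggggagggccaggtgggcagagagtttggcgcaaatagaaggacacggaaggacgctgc
Htr1d, second start, chr4:136424362-136424611, plus strand: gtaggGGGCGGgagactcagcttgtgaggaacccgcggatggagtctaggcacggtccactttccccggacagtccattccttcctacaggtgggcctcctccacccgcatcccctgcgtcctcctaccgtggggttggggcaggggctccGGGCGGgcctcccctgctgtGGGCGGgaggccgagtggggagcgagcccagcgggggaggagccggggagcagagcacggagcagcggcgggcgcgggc
Htr1f, chr16:65105785-65106034, minus strand: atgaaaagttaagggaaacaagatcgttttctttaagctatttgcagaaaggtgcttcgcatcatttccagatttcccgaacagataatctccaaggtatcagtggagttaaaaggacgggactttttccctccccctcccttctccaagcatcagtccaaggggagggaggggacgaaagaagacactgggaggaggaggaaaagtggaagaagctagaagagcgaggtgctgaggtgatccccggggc
Htr1b, chr9:81633833-81634082, minus strand: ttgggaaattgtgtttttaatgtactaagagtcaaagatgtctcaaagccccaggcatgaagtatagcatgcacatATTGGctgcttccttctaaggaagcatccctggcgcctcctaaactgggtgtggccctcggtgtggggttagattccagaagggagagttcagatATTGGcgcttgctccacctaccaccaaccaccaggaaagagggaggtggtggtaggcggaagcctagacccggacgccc
The first Htr1d window held 1 GC box and 1 CCAAT box, and the second held 3 GC boxes. The Htr1b window held 2 CCAAT boxes and no GC box, and the Htr1f window held neither. Of 32851 promoter windows of the same length, 32.7% held a GC box and 33.8% a CCAAT box, so these letters are common. The 4 windows held no E-box (CACGTG, in 6.02% of windows), no D-box (TTATGTAA, in 0.819%), no AP-1 site (TGANTCA, in 6.75%) and no cyclic AMP response core (TGACG, in 17.8%), searched on both strands. A match is only a run of letters, and its absence says nothing about a factor outside the window. The deposited data hold no measurement at these promoters.

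Levels are deposited log2 intensities, so a difference of 1 is a 2-fold difference, and levels of different probe sets are not comparable with each other. Array medians of transcript probe sets lay between 4.88 and 4.97. Those of the negative control probe sets lay between 5.06 and 5.35, with their 95th percentiles between 8.21 and 8.77. The list of 8 sensory neuron markers had a mean between 15.04 and 15.25 on every array, while 2 of 6 spinal cord markers were bright enough to be tested. Group means carry the SD over their arrays, and log2 differences carry limma's standard error. A gene is called where its limma p, adjusted by Benjamini-Hochberg across all 20260, lies below 0.05.

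Over the 25 arrays, Htr1d, Htr1f, Htr3a, Htr3b and Htr5b were above the 95th percentile of the negative controls on every array. Htr2a was above it on 24 arrays and Htr1b on 11. Htr1a and Htr7 were above the median of the negative controls on all 25 arrays but never above the 95th percentile. Htr2b lay between 4.01 and 4.54, below the negative control median on every array. The brightness limit for testing was 4.52. Htr2b, with a mean of 4.28, fell just outside it, and the dimmest member inside was Htr1a with 5.78. In levels, the 5-HT2B receptor was therefore not distinguishable from control probe sets in these ganglia.

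**Figure D1:**
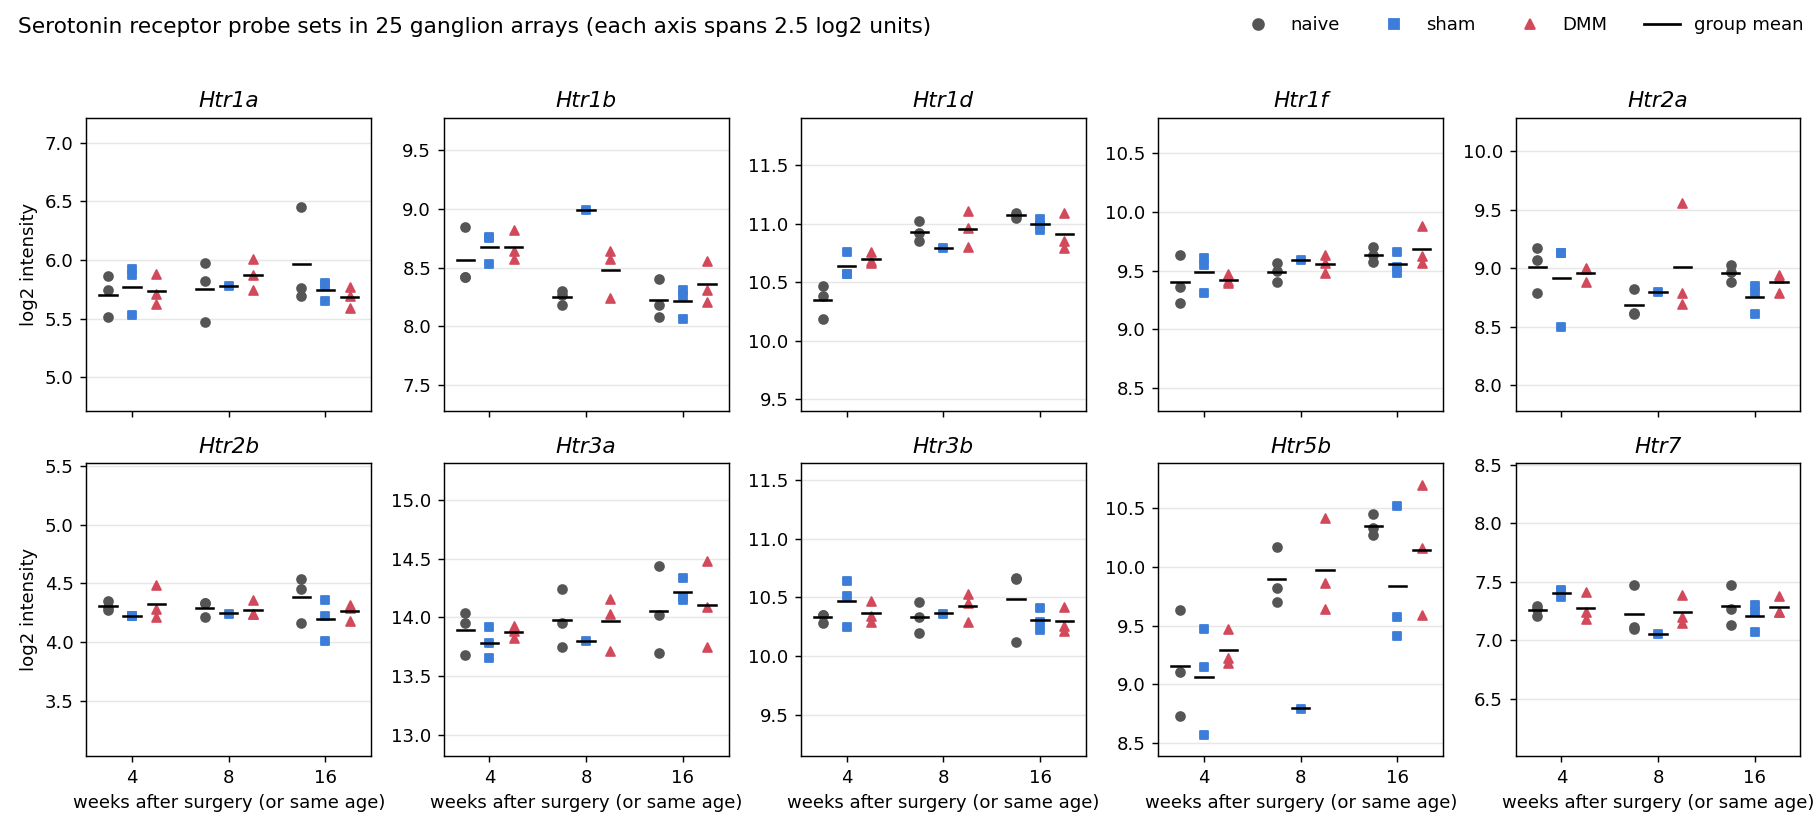
Log2 intensity of the 10 serotonin receptor probe sets (y axis, each panel spanning 2.5 units) against weeks after surgery (x axis), with 1 point per array, grey circles for naive, blue squares for sham and red triangles for DMM mice, and a bar at each group mean. Htr1d lies between 10.19 and 10.76 at 4 weeks and between 10.79 and 11.11 later, while Htr2b stays between 4.01 and 4.54.

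Across the 9 groups, 3 of the 9 tested members differed, namely Htr1d (F = 12.9, limma adjusted p = 0.00175), Htr1b (F = 5.62, adjusted p = 0.0194) and Htr5b (F = 5.05, adjusted p = 0.0267). In that test 10.8% of all genes were called. Calls came in comparisons between times, and none came in a comparison between treatments. In the average over naive, sham and DMM mice, 16 against 4 weeks, Htr1d, Htr5b and Htr1f rose and Htr1b fell, 4 of 9 members against 24.8% of all genes (10% higher and 14.8% lower). In that comparison the median difference of the 9 members was 0.06, beside -0.03 over all genes tested. Naive mice had no operation, so surgery has no part in their comparison of times. The labels name no array batch, so age cannot be told apart there from differences between collections or array runs. In operated mice time from surgery cannot be told apart from these either.

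Htr1d encodes the 5-HT1D receptor, an inhibitory receptor of sensory nerve endings, and it differed most clearly between times. In naive mice the 4-week arrays read 10.19, 10.47 and 10.38, the 8-week arrays 10.85, 11.02 and 10.92, and the 16-week arrays 11.09, 11.07 and 11.05. In sham mice it read 10.57, 10.57 and 10.76 at 4 weeks, 10.79 on the lone array at 8 weeks, and 11.04, 10.99 and 10.95 at 16 weeks. In DMM mice the 4-week arrays read 10.68, 10.76 and 10.66, the 8-week arrays 10.96, 10.80 and 11.11, and the 16-week arrays 10.85, 10.79 and 11.09. Every array at 8 or 16 weeks was above every array at 4 weeks, whatever the treatment. Over all genes, 1.21% had all 9 arrays at 16 weeks above all 9 at 4 weeks, and 0.202% had all 7 arrays at 8 weeks above all 9 at 4 weeks. Ordered by group mean, Htr1d ran from naive at 4 weeks (10.35 ± 0.15, n = 3) through sham and DMM at 4 weeks (10.64 ± 0.11 and 10.70 ± 0.05, n = 3 each) to naive at 16 weeks (11.07 ± 0.02, n = 3). Between them, from 10.79 in the lone sham array at 8 weeks to 10.99 ± 0.04 in sham mice at 16 weeks (n = 3), lay the other groups. Among neighbours in this order, passing over the lone array, the arrays did not overlap between naive and sham mice at 4 weeks, DMM mice at 4 weeks and at 16 weeks, or sham and naive mice at 16 weeks, and they overlapped in the rest.

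Averaged over treatments, Htr1d rose by 0.43 ± 0.05 from 4 to 16 weeks, or 1.35-fold (limma adjusted p = 1.53e-05). From 4 to 8 weeks, averaged over naive and DMM mice, it rose by 0.42 ± 0.06 (adjusted p = 0.00159), and 2 of 9 members were called beside 8.85% of all genes. Its median was 10.57, 10.92 and 11.04 at 4, 8 and 16 weeks. Within naive mice the rise from 4 to 16 weeks was 0.72 ± 0.09, or 1.65-fold (adjusted p = 0.000206). There 2 of 9 members were called, both higher, beside 18.8% of all genes (6.08% higher). Within sham mice it was 0.36 ± 0.09 (adjusted p = 0.0441), where 1 of 9 members and 1.76% of all genes were called. This sham call was lost in 11 of 16 alternative settings, which gave 0.21 to 0.42. Among them were quantile normalization (0.211, adjusted p = 0.222), cyclic loess (0.314, adjusted p = 0.0732), and leaving out sham replicate 1 or 2 at 4 weeks or any sham replicate at 16 weeks. Within DMM mice the difference was 0.21 ± 0.09 and was not called (adjusted p = 0.207), and no member was called there beside 2.87% of all genes, with 4 of 9 members and 18.4% of genes at an unadjusted p below 0.05. The 3 comparisons within a treatment share no arrays with each other, but all of them enter the average.

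Htr1b encodes the 5-HT1B receptor, a presynaptic inhibitory receptor of the same Gi/o class, and it went the other way. It read 8.42, 8.42 and 8.85 in naive, 8.75, 8.53 and 8.76 in sham, and 8.82, 8.57 and 8.64 in DMM mice at 4 weeks. At 16 weeks it read 8.18, 8.40 and 8.08 in naive, 8.26, 8.06 and 8.31 in sham, and 8.56, 8.21 and 8.31 in DMM mice. At 8 weeks it read 8.27, 8.18 and 8.30 in naive and 8.24, 8.57 and 8.64 in DMM mice, and the lone sham array was the highest of all 25 at 8.99. The 16-week arrays lay below the 4-week arrays in each treatment without overlap, as in 26.2% of all genes in naive, 10.7% in sham and 13.8% in DMM mice. Pooled over treatments they overlapped, because of the DMM array at 8.56. Averaged over treatments Htr1b fell by 0.375 ± 0.074 from 4 to 16 weeks, or 1.3-fold (adjusted p = 0.00124). Within a treatment it differed by -0.34 in naive, -0.47 in sham and -0.32 in DMM mice (adjusted p = 0.0706, 0.0637 and 0.188), none of which was called. It was called in 3 of 16 alternative settings in naive mice, by quantile normalization (-0.411, adjusted p = 0.0258), with array weights (-0.39, adjusted p = 0.0306) and without replicate 2 at 16 weeks (-0.43, adjusted p = 0.0473). It was called in 3 of 16 in sham mice, by quantile normalization (-0.526, adjusted p = 0.0278), cyclic loess (-0.501, adjusted p = 0.0348) and a stricter filter (adjusted p = 0.0489). Htr1b lay close to the 95th percentile of the negative controls, above it on only 11 arrays, so its differences were measured near that limit. All arrays at 4 weeks (8.42 to 8.85) were above the percentile of the same array. No array at 16 weeks (8.06 to 8.56) was. The percentile itself was 8.21 to 8.48 at 4 weeks and 8.56 to 8.77 at 16 weeks, and its part in the fall was not tested.

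Htr1f encodes the 5-HT1F receptor, the target of lasmiditan, and its change was smaller. It read 9.63, 9.22 and 9.36 in naive, 9.61, 9.55 and 9.31 in sham, and 9.41, 9.39 and 9.47 in DMM mice at 4 weeks. At 16 weeks it read 9.70, 9.57 and 9.63 in naive, 9.53, 9.48 and 9.66 in sham, and 9.62, 9.56 and 9.88 in DMM mice. The 7 arrays at 8 weeks lay between 9.40 and 9.63, with a median of 9.56 beside 9.41 at 4 weeks and 9.62 at 16 weeks. The times overlapped in naive and sham mice, while all 3 DMM arrays at 16 weeks were above all 3 at 4 weeks, as in 9.04% of all genes. Averaged over treatments it rose by 0.19 ± 0.06 (adjusted p = 0.023). This call was lost without naive replicate 2 at 4 weeks (0.157, adjusted p = 0.0512), without sham replicate 3 at 4 weeks (0.159, adjusted p = 0.0518) and after quantile normalization (0.134, adjusted p = 0.0751). Htr1a, the 5-HT1A receptor best known as the autoreceptor of serotonin neurons in the brain, lay between 5.47 and 6.45 over the 25 arrays. Its medians were 5.74, 5.82 and 5.76 at 4, 8 and 16 weeks, and 16 against 4 weeks differed by 0.06 ± 0.09 (adjusted p = 0.675).

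Htr2a encodes the 5-HT2A receptor, which sensitizes nociceptors. It lay between 8.50 and 9.17 at 4 weeks, between 8.61 and 9.56 at 8 weeks with a median of 8.79, and between 8.61 and 9.03 at 16 weeks with a median of 8.88. The times overlapped throughout. The difference of 16 against 4 weeks was -0.10 ± 0.10 (adjusted p = 0.533), with an interval from -0.31 to 0.12. The highest array was DMM replicate 2 at 8 weeks with 9.56, beside 8.79 and 8.69 in the other arrays of its group. Htr2b, the Gq-coupled 5-HT2B receptor, was at control level in every group, with group means from 4.20 to 4.38, and in the fit without a brightness filter it differed by -0.004 ± 0.054 between 16 and 4 weeks (adjusted p = 0.973).

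Htr3a and Htr3b encode the 2 subunits of the 5-HT3 channel and lie beside each other in the genome. Htr3a, which can form a channel alone, lay between 13.65 and 14.04 at 4 weeks (median 13.88), between 13.71 and 14.24 at 8 weeks (median 13.95) and between 13.70 and 14.48 at 16 weeks (median 14.15). Its spread was wider at 16 weeks, with an SD of 0.28 over 9 arrays beside 0.13 at 4 weeks; the difference in spread was not tested. From 4 to 16 weeks Htr3a differed by 0.28 ± 0.10, or 1.21-fold (adjusted p = 0.0579). That missed the threshold and was past it in 6 of 28 alternative settings. These were a stricter filter, quantile normalization, cyclic loess and array weights (adjusted p = 0.0498, 0.0469, 0.0478 and 0.0151, differences of 0.278 to 0.33). The others left out naive replicate 3 or DMM replicate 3 at 16 weeks, the arrays at 13.70 and 13.75 (0.337 and 0.338, adjusted p = 0.0196 each). In sham mice the difference was 0.44 ± 0.18 (adjusted p = 0.198), with all 3 arrays at 16 weeks above all 3 at 4 weeks, as in 15.2% of all genes, and in naive and DMM mice the arrays overlapped.

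Htr3b, the subunit that joins Htr3a in mixed channels, lay between 10.25 and 10.64 at 4 weeks, between 10.20 and 10.53 at 8 weeks and between 10.12 and 10.67 at 16 weeks. It differed by -0.03 ± 0.07 between 16 and 4 weeks (adjusted p = 0.83). Leaving out naive replicate 1 at 16 weeks, the lowest array of all at 10.12, gave 0.338 for naive mice (adjusted p = 0.0479), beside 0.15 ± 0.12 with it (adjusted p = 0.408). No relation between the levels of the subunits was detected. Over the 25 arrays Pearson's r of Htr3a with Htr3b was -0.101 (permutation p = 0.632) and Spearman's rho was -0.149 (permutation p = 0.473). Without the 2 arrays farthest from the median of Htr3a, r was -0.292 (permutation p = 0.175). Within a time r was 0.08, 0.09 and -0.17 at 4, 8 and 16 weeks, over 9, 7 and 9 arrays. This was the only relation between members tested for a p-value.

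Htr5b encodes the 5-HT5B receptor, which is functional in rodents but not in humans, and had the largest log2 difference of the 9 members between 4 and 16 weeks. It read 9.63, 9.10 and 8.73 in naive, 9.15, 9.47 and 8.57 in sham, and 9.22, 9.47 and 9.18 in DMM mice at 4 weeks. At 8 weeks it read 9.70, 9.82 and 10.17 in naive, 10.42, 9.86 and 9.64 in DMM mice, and 8.79 on the lone sham array. At 16 weeks it read 10.45, 10.27 and 10.33 in naive, 10.52, 9.41 and 9.57 in sham, and 9.59, 10.16 and 10.70 in DMM mice. In naive and DMM mice every array at 8 or 16 weeks was above every array at 4 weeks of the same treatment. For 16 weeks alone 12.8% of all genes did so in naive and 9.04% in DMM mice. In sham mice the groups overlapped, and the lone array at 8 weeks lay among those at 4 weeks. Averaged over treatments Htr5b rose by 0.94 ± 0.18 from 4 to 16 weeks, or 1.92-fold (adjusted p = 8e-04), and it kept its call in all 28 alternative settings, with differences from 0.83 to 1.05. Within naive mice it rose by 1.20 ± 0.31, or 2.3-fold (adjusted p = 0.0111). That call was lost without naive replicate 3 at 4 weeks, the array at 8.73 (0.986, adjusted p = 0.0625). It differed by 0.77 ± 0.31 in sham and 0.86 ± 0.31 in DMM mice (adjusted p = 0.185 and 0.133), neither called. From 4 to 8 weeks it rose by 0.71 ± 0.22 (adjusted p = 0.0457), a call lost in 13 of 22 alternative settings.

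Htr7 encodes the 5-HT7 receptor, the Gs-coupled member, and stayed within a narrow range of 7.05 to 7.47 over all arrays. Its medians were 7.29, 7.15 and 7.24 at 4, 8 and 16 weeks. The difference of 16 against 4 weeks was -0.05 ± 0.06 (adjusted p = 0.554), with an interval from -0.17 to 0.07. In sham mice all 3 arrays at 16 weeks, from 7.07 to 7.30, lay below the 3 at 4 weeks, from 7.37 to 7.43 (10.7% of all genes), with a difference of -0.20 ± 0.10 (adjusted p = 0.299). In the comparison within sham mice 25.9% of all genes did not overlap between times, and 4 of 9 members did not.

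**Figure D2:**
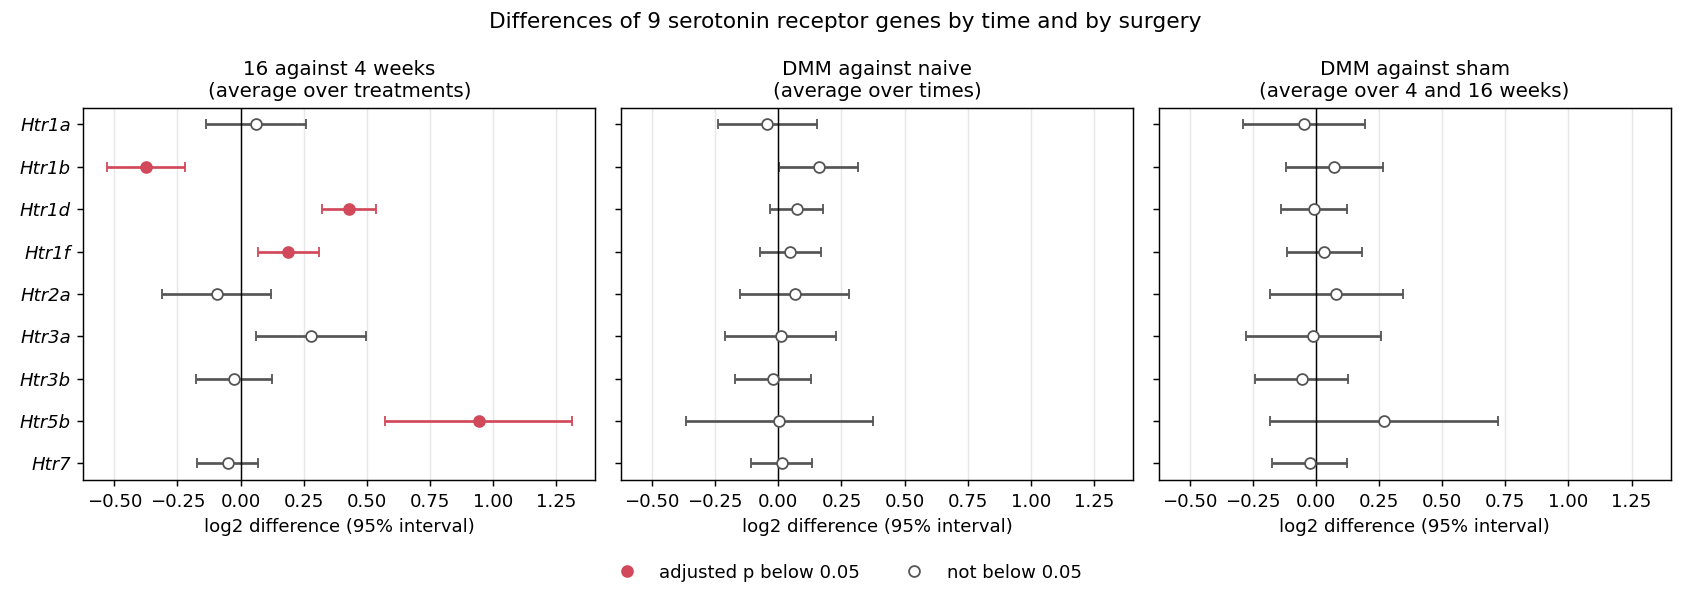
Log2 differences (x axis, points, with 95% intervals as bars) of the 9 tested members for 16 against 4 weeks averaged over treatments (left), for DMM against naive over the 3 times (middle) and for DMM against sham over 4 and 16 weeks (right), with filled red points for a limma adjusted p below 0.05. Htr5b at 0.94, Htr1d at 0.43, Htr1f at 0.19 and Htr1b at -0.375 are filled in the first panel and no point is filled in the others.

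The comparisons with surgery ask whether joint damage moves these receptors in the ganglia that serve the knee, and no member was called in any of the 13. For DMM against naive mice over the 3 times, 0 of 9 members passed, beside 0.0444% of all genes, and 1 member (Htr1b) had an unadjusted p below 0.05, as 7.32% of genes did. Htr1b stood 0.16 ± 0.07 higher in DMM mice (adjusted p = 0.674), with an interval from 0.005 to 0.315. The other 8 differences lay between -0.04 and 0.07. The median over the members was 0.01, beside -0.01 over all genes tested. The widest interval was that of Htr5b, from -0.36 to 0.38, and the narrowest that of Htr1d, from -0.03 to 0.18. At 4, 8 and 16 weeks taken singly, 0 members passed in DMM against naive mice, beside 0.00987%, 0.0494% and 0.0148% of all genes. At an unadjusted p below 0.05 there were 1, 0 and 0 members, beside 8.8%, 8.49% and 8.81% of genes.

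Htr1d at 4 weeks had the smallest p among these. All 3 DMM arrays (10.66 to 10.76) were above all 3 naive arrays (10.19 to 10.47), and the difference of 0.35 ± 0.09 was not called (limma adjusted p = 0.318). Sham arrays were above naive arrays as well, by 0.29 ± 0.09 (adjusted p = 0.12), so that both operated groups stood above the same 3 naive arrays. At 16 weeks the sham arrays (10.95 to 11.04) lay below the naive arrays (11.05 to 11.09), as in 5.44% of all genes, with a difference of -0.08 ± 0.09 (adjusted p = 0.816). Among all genes, 4.65% had DMM wholly above naive mice at 4 weeks and 7.21% had sham wholly above naive mice. By 16 weeks DMM mice differed from naive mice by -0.16 ± 0.09 in Htr1d (adjusted p = 0.623). From 4 to 16 weeks the DMM effect on Htr1d against naive mice changed by -0.51 ± 0.13 (adjusted p = 0.239). There 0 members and 0.00494% of all genes were called, and 1 member and 10.6% of genes had an unadjusted p below 0.05.

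DMM against sham mice separates the joint damage from the operation itself, and it gave 0 calls among the members at 4, 8 and 16 weeks, beside 0%, 0% and 0.00494% of all genes. At an unadjusted p below 0.05 there were 0, 2 and 0 members at these times, where 4.68%, 8.43% and 6.45% of genes were. The 2 members were Htr5b, at 1.18 ± 0.43 (adjusted p = 0.413), and Htr1b, at -0.52 (adjusted p = 0.38), both at 8 weeks. These rest on the lone sham array, which is assumed to vary like the other groups, and 4 of 9 members did not overlap there, as 50.9% of all genes did not. Averaged over 4 and 16 weeks, 0 members were called, beside 0.00987% of all genes, and 0 had an unadjusted p below 0.05, as 4.88% of genes had. The differences ran from -0.06 to 0.27, and the interval of Htr5b, the widest, from -0.18 to 0.72. Sham against naive mice gave 0 calls at 4 weeks (0.331% of all genes) and at 16 weeks (0.00494%), with 1 and 0 members at an unadjusted p below 0.05, beside 15.9% and 10.8% of genes. The change of the DMM effect against sham mice was likewise called in 0 members and 0% of genes, with 0 members and 5.89% of genes at an unadjusted p below 0.05. In the change of the sham effect against naive mice, calls fell on 0 members and 2.09% of genes, with 1 member and 20.2% of genes at an unadjusted p below 0.05. DMM and sham comparisons with naive mice share the naive arrays, and DMM comparisons with naive and sham mice share the DMM arrays.

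Genes of the neuronal response to nerve injury moved with time beside the receptors. Of 9 such genes, among them Atf3, Sprr1a, Gal and Npy, 8 fell from 4 to 16 weeks in the average over treatments and 0 rose. Among all genes 14.8% were called lower and 10% higher in that comparison. The median of the 9 was -0.75. Their mean level per array was 9.54 to 9.83 in naive, 8.34 to 9.38 in sham and 8.01 to 9.71 in DMM mice at 4 weeks. At 8 weeks it was 7.65 to 8.77 in naive, 7.66 to 9.84 in DMM mice and 9.62 on the lone sham array, and at 16 weeks all 9 arrays lay between 7.48 and 7.92. The naive arrays at 4 weeks had the lowest Htr1d of all arrays, and in injury levels only DMM replicate 2 (9.71) of their age reached their range. No array at 4 weeks (8.01 or more) overlapped in this mean with the arrays at 16 weeks. A fit with it as a term therefore cannot separate it well from time, and does not show which receptors differ independently of these genes. With that mean as a term in the fit, 9.94% of all genes were called for 16 against 4 weeks. Htr1d kept 0.38 ± 0.08 (limma adjusted p = 0.0074) and Htr5b kept 1.05 ± 0.29 (adjusted p = 0.0269). Htr1b at -0.30 ± 0.12 (adjusted p = 0.114) and Htr1f at 0.26 ± 0.09 (adjusted p = 0.076) were no longer called. Without the term Htr1f had a smaller difference and Htr1b a larger fall, each with a smaller error. Within naive mice the same term left Htr1d called at 0.65 ± 0.13 (adjusted p = 0.00602). Htr5b was not called at 1.355 ± 0.452 (adjusted p = 0.0637), a larger difference with a larger error than the 1.20 ± 0.31 without the term.

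**Figure D3:**
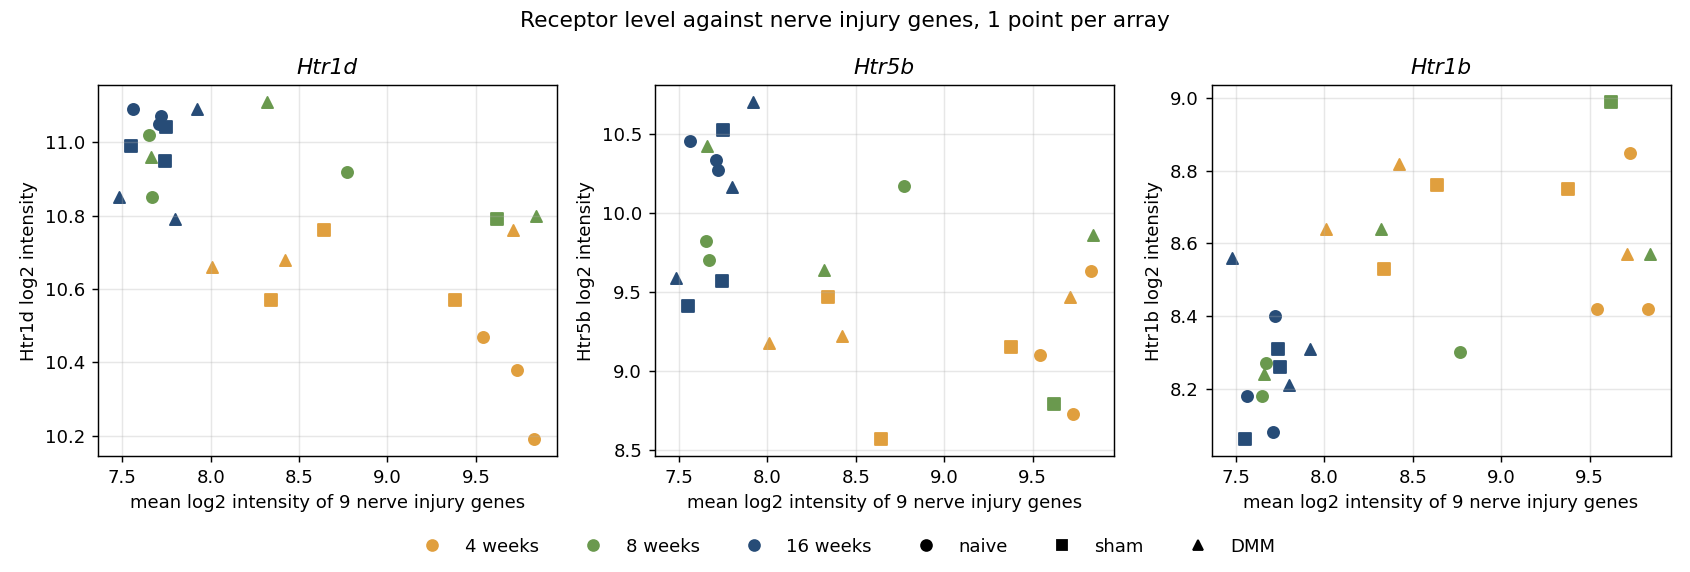
Log2 intensity of Htr1d, Htr5b and Htr1b (y axes) against the mean log2 intensity of the 9 nerve injury genes (x axis), 1 point per array, coloured by time and shaped by treatment. The 9 arrays at 16 weeks sit between 7.48 and 7.92 on the x axis, and the 3 naive arrays at 4 weeks sit between 9.54 and 9.83 with the lowest Htr1d values, 10.19 to 10.47.

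Other markers also moved with time, in lists to be read beside the 24.8% of all genes called. Non-peptidergic nociceptor markers rose in 3 of 5 members with a median of 0.215, namely Gfra2 by 0.59 ± 0.09, Lpar3 by 0.44 ± 0.14 and Plxnc1 by 0.21 ± 0.07. Their mean level per array was 12.88 to 13.32 at 4 weeks and 13.01 to 13.54 at 16 weeks. Itch neuron markers rose in 3 of 7 members and fell in 1, with Sst up by 1.22 ± 0.20 and Nts down by 2.27 ± 0.36, and list means of 10.25 to 11.47 at 4 and 10.51 to 11.06 at 16 weeks. Peptidergic nociceptor markers fell in 1 of 4 (Tac1), touch and proprioceptive markers rose in 1 of 9 (Th, by 1.097 ± 0.161) and fell in 1 (Nefm), and general sensory neuron markers fell in 2 of 8 (Tubb3 and Prph). Satellite glia markers fell in 3 of 6 (Fabp7, Kcnj10 and Apoe), with list means of 11.21 to 11.52 at 4 and 11.07 to 11.27 at 16 weeks. Myelinating Schwann cell markers fell in 1 of 5 (Pmp2), macrophage markers rose in 1 of 8 (Cd163) and fell in 2 (Cx3cr1 and Csf1r), and pericyte and smooth muscle markers were called higher in 2 of 7 (Pdgfrb, and Kcnj8 at means below the negative control medians). Fibroblast and meninges, endothelium, skeletal muscle and spinal cord markers had 0 calls of 7, 6, 4 and 2 tested. The circadian clock list rose in 6 of 12 members and fell in 2 (Arntl and Clock), with list means of 7.68 to 8.29 at 4 and 7.91 to 8.42 at 16 weeks, and the labels give no time of day. The 95th percentile of the negative control probe sets was 8.21 to 8.48 at 4 weeks, 8.51 to 8.67 at 8 weeks and 8.56 to 8.77 at 16 weeks, without overlap between 4 weeks and later. Medians of transcript probe sets at these times were 4.90, 4.95 and 4.94, and those of hybridisation controls were 11.18, 11.19 and 11.17. The part of these in the receptor differences was not tested. After quantile normalization or cyclic loess of the arrays, Htr1d, Htr5b and Htr1b kept their calls for 16 against 4 weeks.

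Among genes that make and clear serotonin, 1 of 12 was called higher and 3 lower from 4 to 16 weeks, beside 10% and 14.8% of all genes, with a median of -0.05. Slc6a4, the serotonin transporter, was called lower (limma adjusted p = 0.00565). Its mean was 5.94 at 4 weeks and 5.01 later, the latter below the negative control medians of 5.06 to 5.35, so that the size of its fall is not measured. Ddc, the decarboxylase that forms serotonin, was called with means of 4.84 and 4.69, both below those medians, so its difference is not read as a fall. Spr, which makes the cofactor of serotonin synthesis, fell by 0.16 ± 0.04, and Maob, which degrades amines, rose by 0.20 ± 0.06. Markers of the cells that release serotonin had no calls: 0 of 7 mast cell markers, with a median of 0.258, and 0 of 4 platelet markers, with a median of 0.137. Their mean levels were 6.75 to 7.62 at 4 and 6.68 to 7.80 at 16 weeks for mast cells, and 5.20 to 5.52 and 5.31 to 6.03 for platelets. The platelet levels at 4 weeks lay close to the negative control medians, so the absence of calls says little about platelets.

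Downstream of the receptors, calls went both ways, and the counts are to be read beside the 10% of all genes called higher and 14.8% called lower. Of 10 Gi/o signalling genes 2 rose and 2 fell, with Gnao1, the alpha subunit of Go, up by 0.20 ± 0.04 and Rgs7 up by 0.26 ± 0.06, and Gnai3 and Gnai1 down by 0.21 ± 0.05 and 0.22 ± 0.08. Of 11 Gq genes 3 rose and 2 fell, among them Plcb3, a phospholipase C of nociceptors, up by 0.27 ± 0.08, and Prkcb down by 0.22 ± 0.05. Of 17 Gs genes 2 rose and 3 fell, with Prkacb, a catalytic subunit of protein kinase A, up by 0.19 ± 0.03 and the adenylyl cyclase Adcy2 down by 0.26 ± 0.06. Of 9 receptor partners and regulators 1 rose (Grk5) and 3 fell. Arrb1, beta-arrestin 1, which desensitizes and internalizes receptors, fell by 0.43 ± 0.06 (limma adjusted p = 9.52e-05), and S100a10 and Anxa2 fell by 0.18 ± 0.04 and 0.12 ± 0.04. The medians of these 4 lists were 0.037, 0.124, 0.03 and -0.003, beside -0.03 over all genes. In DMM against naive mice, averaged over times, all these signalling, synthesis and partner lists had 0 calls. Among all lists only satellite glia (1 higher, Fabp7) and the circadian clock (1 higher and 4 lower of 12, median -0.425) had any.

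Of the serotonin receptor genes outside the 10, Htr4, a Gs-coupled receptor, rose by 0.235 ± 0.060 from 4 to 16 weeks (adjusted p = 0.00741), and Htr5a differed by 0.245 ± 0.101 (adjusted p = 0.0843). Neither was above the 95th percentile of the negative controls on any array. Htr5a was above their median on 23 arrays and Htr4 on 25, so both differences were measured within the range of the negative controls. Htr2c and Htr6, with means of 4.21 and 4.26, were below the brightness limit like Htr2b.

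The genes whose levels over the 25 arrays were most like a member's were taken as the 3 of highest Pearson r, as a description with no test, since all arrays share the same differences in time. Htr1d was most like Inpp5j (r = 0.92), Pnkd and Atp2b3 (0.91 each), and Htr5b most like Kcnh6 (0.93), Pld5 and Gfra2 (0.92 each). Within groups, after removing the group means, r with Htr1d was 0.82 for Inpp5j, 0.61 for Pnkd and 0.64 for Atp2b3. For Htr5b it was 0.88 with Kcnh6, 0.84 with Pld5 and 0.85 with Gfra2. Htr1b was most like Gpr158 (0.89), Folh1 and Neto1 (0.85 each), and Htr1f most like Kctd16 (0.87), Prkd1 and Zmat4 (0.82 each). Htr2a was most like Plaur (0.86), Dnajc5b and Rab27a (0.84 each), and Htr3a most like Prelid3a (0.82), Pgghg (0.80) and Asb13 (0.78). The remaining members had a lower r over the arrays, of 0.74 for Htr3b with Cdc42ep2, 0.73 for Htr7 with Zxda and 0.70 for Htr1a with Gm23033. Within groups these 3 pairs were not weaker, with r of 0.85, 0.82 and 0.87. Between members, r was -0.74 for Htr5b with Htr1b and 0.62 for Htr5b with Htr1d and with Htr1f, over the same arrays.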

How the data were processed

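Expression was measured on 25 microarrays. The authors deposited 1 value per probe set and array for 72685 probe sets, read here as log2 intensities from their range. For their normalization and summary method, the tool is not given in the sources used here. Biotin labelling by the manufacturer's standard procedure is per the labels. Arrays have no read depth, and their number limits the precision. Of 65956 transcript probe sets, 30604 had 1 symbol (827 updated by Entrez identifier) and 2146 several, and 355 genes had several probe sets, of which the brightest was used. Genes with a mean above the 40th percentile (4.52) were tested.

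The model, in limma 3.58.1 under R 4.3.3, gave each group 1 mean across the 25 arrays (16 residual and 3.28 prior degrees of freedom, median residual SD 0.121), two-sided, with a call at an adjusted p below 0.05. The procedure was tested on simulated data for 16 against 4 weeks, in naive mice and averaged over treatments, and for the difference among the 9 groups. In naive mice 70 of 100 genes shifted by 0.5 and 95 of 100 shifted by 1 were recovered. In the average these were 94 and 100, and among the 9 groups 86 and 100. Unshifted genes called numbered 10, 11 and 5. Smaller shifts were not simulated. No comparison with surgery was simulated. Permutation tests used 100000 resamples, with ranks for Spearman's rho from SciPy 1.17.1. The members and lists were chosen with earlier results of these data known. The averages of 16 and of 8 against 4 weeks, DMM against sham averaged over 4 and 16 weeks, the change of the sham effect and the fit with nerve injury genes were added after the values were seen.

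By rule every member is named, with values by array for those called in any comparison (4 of at least 4 asked for). Likeness takes the 3 genes of highest r, and lists give their counts, median and up to 4 members of smallest p, or the called ones. Alternatives were the brightness filter, normalization, variance model, array weights, only the groups compared, the mean of a gene's probe sets, a block for replicate number, and leaving out each array. Over 21 pairs of arrays with equal replicate numbers, deviations correlated from -0.359 to 0.318, over 0.1 in 8, of which 7 were among the 9 pairs at 16 weeks. All 3 pairs of naive and sham arrays at 16 weeks were over 0.1 (0.108 to 0.308), so the numbers may pair those, from the data and not the labels. Between these groups the block changed no call of a member. For the other groups the numbers are not taken as a pairing.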

Additional observations from a re-analysis of the deposited data

Results flagged for a closer look

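Htr1d drew attention because sham and naive mice changed sides between times. At 4 weeks every sham array (10.57 to 10.76) was above every naive array (10.19 to 10.47), and at 16 weeks every sham array (10.95 to 11.04) was below every naive array (11.05 to 11.09), as in 5.44% of all genes. The change of the sham effect was -0.367 ± 0.125, not called by limma (adjusted p = 0.112, unadjusted p = 0.00851), in a comparison where 0 members and 2.09% of all genes were called. Leaving out 1 array at a time gave -0.429 to -0.286 with no call. Groups of 3 arrays are too small for a search for single outlying arrays.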

How the results depend on the processing

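In the 13 comparisons with surgery, 0 members were called under every setting run. Htr1d came closest over these settings. Its lowest limma adjusted p was 0.0508 for the change of the DMM effect against naive mice and 0.0544 for sham against naive mice at 4 weeks. For 16 against 4 weeks averaged over treatments the 4 calls became 2 with nerve injury genes as a term (Htr1d and Htr5b). Within naive mice the 2 calls became 1 (Htr1d) with that term, and 1 to 3 when leaving out 1 array: 1 without naive replicate 3 at 4 weeks, and 3 without naive replicate 1 at 4 weeks (Htr1f added) or naive replicate 1 or 2 at 16 weeks (Htr3b or Htr1b added). Within sham mice the 1 call (Htr1d) became 0 without a filter, with the nerve injury term and with only the groups compared, 2 (Htr1b and Htr1d) with a stricter filter, 1 but of Htr1b in place of Htr1d with quantile normalization or cyclic loess, and 0 to 1 when leaving out 1 array. From 8 against 4 weeks the 2 calls became 1 (Htr1d) without a filter, with the nerve injury term, and 1 to 2 when leaving out 1 array. Among the 9 groups the 3 calls became 1 (Htr1d) with the nerve injury term. The causes of these changes were not tested.

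With the replicate number as a block, the sham call became 0 and the calls for 8 against 4 weeks became 1, and the other counts stayed within 1.5 times. The correlation of Htr3a with Htr3b was 0.014 on deviations from group means and 0.015 with the replicate block, beside -0.101. Of 3060 recomputed log2 differences, 2863 kept their direction, 197 uncalled ones turned, 0 called ones reversed, 31 lost their call and 16 gained one. Part of these could not turn. The filter, the variance model, the mean of probe sets and the fit on only the groups compared leave a member's difference unchanged. So does the replicate block in comparisons that do not use the lone sham array. Other scalings moved the median of all genes by at most 0.061. Htr1a and Htr7 lay within the range of the negative controls and Htr2b below their median, which limits what can be said of them.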

Other observations

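The lone sham array at 8 weeks lay outside the DMM arrays of its age in 4 of 9 members, beside 50.9% of all genes. It had the highest Htr1b of the 25 arrays (8.99). Its Htr1d (10.79), Htr5b (8.79) and Htr7 (7.05) were below all naive and DMM arrays at 8 weeks. The share of all genes outside both groups was not counted, so this is a description only. Its nerve injury mean was 9.62, beside 7.65 to 8.77 in naive mice of that age. DMM replicate 2 at 8 weeks had the highest nerve injury mean of all arrays (9.84) and the highest Htr2a (9.56), while its Htr5b (9.86) lay between the other arrays of its group. Naive replicate 3 at 16 weeks had the highest Htr1a (6.45), beside 5.69 and 5.76 in the other arrays of its group.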
